A study of Gorilla gorilla with 12 samples.

Results

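Expression of 9 genes of the WNT pathway was followed over cultured fibroblast lines, connective tissue cells, of gorillas. The genes were SFRP1, SFRP4, FRZB, DKK1 and DKK3 for secreted antagonists, WNT5A and WNT2 for ligands, and FZD2 and FZD7 for receptors. They were chosen by symbol, as every probe set whose annotation gave 1 symbol that was one of the 9, which found 11 of the 12625 probe sets of the array. WNT5A and FZD2 had 2 probe sets each and the other 7 genes had 1. The genes were named with earlier results on these same arrays in view, so their levels, their spread between lines and their difference with culture density are described here and not tested.

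Each of the 12 arrays held RNA of 1 culture. The standard harvest covered 11 lines, each with a name of its own in the labels and 1 array. The 6 lines labelled female, numbered 1 to 6, came from donors of 19, 19, 35, 26, 30 and 2 years. The 5 lines labelled male, numbered 1 to 5, came from donors of 19, 26, 24, 18 and 3 years. Male line 2, from the donor of 26 years, had a second culture taken at 50% confluence, when cells cover part of the dish. Per the labels all donors were normal animals, and no treatment is named for any group. The numbers name the lines and pair nothing.

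WNT proteins are secreted, lipid-bearing signals that bind Frizzled receptors at the cell surface. In the canonical branch they stabilise beta-catenin, which then acts with TCF and LEF factors on target genes, while in other branches they steer cell shape and movement. Secreted antagonists work outside the cell: SFRP proteins and FRZB carry a Frizzled-like domain that binds WNT ligands, and DKK1 binds the LRP co-receptors. In skin and other connective tissue, fibroblasts are known both to make and to answer such signals.

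Signals were deposited as linear intensities with a floor of 100, and a value of 100 is an upper limit, not a measured level. The probes were designed on human sequence, so no level of one gene is set against that of another. The RNA is that of a whole culture, in which fewer cells of a type and less RNA per cell cannot be told apart. The share of probe sets at the floor was 40.1% to 49.18% by array, the most at 50% confluence and the fewest on the standard array of the same line. All 9 measured fibroblast markers, collagen I and III genes among them, were above the floor on all 12 arrays. Of 5 leukocyte genes, PTPRC and LYZ were at the floor on all 12, and CD68 (420 to 1080) and CD3E (140 to 252) were above it on all 12. Of 6 keratinocyte genes, KRT5 and KRT14 were at the floor on all 12 and KRT10 (1533 to 3059) was above it on all 12. Of 6 endothelial genes, VWF was at the floor on all 12 and 0 were above it on all 12. One line went against its label: RPS4Y1, a Y-linked gene, gave 2595 in female 3. The remaining females had 100 to 115 and the males 2662 to 4363. Results on sex and age over donors of all ages are therefore given with and without that line, for the brighter or only probe set of each tested member. Fits of adults alone, of young against adult donors, of dimmer probe sets and of other pathway genes include it.

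SFRP1, a secreted antagonist that binds WNT ligands through its Frizzled-like domain, varied most between the lines. In females 1 to 6 its intensity was 100, 767, 1621, 142, 100 and 100. In males 1 to 5 it was 100, 409, 1846, 194 and 265. Male 3 and the line labelled female 3 stood highest, with female 2 next, and 4 of the 11 lines were at the floor, 3 female and 1 male. Highest over lowest was at least 18.5-fold. The SD of its log2 value over the 11 lines was 1.61, against a median SD of 0.41 over the 7541 probe sets tested. An SD of 1 or more was reached by 1 of the 7 probe sets of the group that passed the filter on dim values, and by 1.55% of all tested probe sets. Without male 3 that SD was 1.40, and without the line labelled female 3 it was 1.44.

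DKK1, which blocks the co-receptors LRP5 and LRP6, was above the floor on all 12 arrays. In females 1 to 6 it had 1676, 1367, 705, 657, 1254 and 650, and in males 1 to 5 it had 1209, 1205, 1558, 903 and 3242. Male 5, the donor of 3 years, was the highest and female 6, the donor of 2 years, the lowest, so the 2 youngest donors stood at opposite ends of the order. Below male 5 the lines followed each other in small steps: female 1 was 1.93-fold lower, and from there the largest step between neighbours was 1.33-fold. Each line had 1 array, so the spread within a line was not measured and the order of such near neighbours is not settled. The SD of the log2 value was 0.69 over all 11 lines and 0.52 without male 5.

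The other 3 antagonists were at or close to the floor. FRZB, a Frizzled-like antagonist known from cartilage, stood at 100 on all 12 arrays. SFRP4, a further member of the SFRP family, was at 100 on 11 arrays and at 135 in male 4. DKK3, a relative of DKK1 whose receptor is less clear, reached 119 in female 6, 119 in male 2 and 110 in male 4 and was at 100 elsewhere. None of the 3 passed the filter on dim values. With 1 human-designed probe set each, a low transcript and poor binding of the gorilla transcript cannot be told apart.

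WNT5A, a ligand best known for signalling outside the beta-catenin branch, was measured on all 12 arrays by both of its probe sets. On its brighter probe set, females 1 to 6 had 1281, 1177, 1757, 556, 888 and 1594. Males 1 to 5 had 464, 426, 224, 703 and 1736 on it. The highest values, 1757, 1736 and 1594, were those of the line labelled female 3, male 5 and female 6. Male 3 was the lowest, 7.84-fold below the highest. Its dimmer probe set gave 850, 653, 1031, 307, 577 and 682 in the females and 230, 293, 165, 476 and 756 in the males. The same line was highest and the same line lowest on both probe sets, and their log2 values ran together over the 11 lines (Pearson r = 0.96, Spearman rho = 0.95, and r = 0.93 without the 2 lines farthest from the median). The SD between lines was 0.95 and 0.82 log2 units on the 2 probe sets.

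WNT2, a ligand of the beta-catenin branch, stood at the floor on 10 of the 12 arrays. The 2 values above it were 104 in female 6 and 110 in male 5, the lines of the 2 youngest donors. Both lie so close to the floor that they give no level, and the probe set did not pass the filter.

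FZD2, a Frizzled receptor known to take part in WNT5A signalling, was above the floor on all 12 arrays. On its brighter probe set, females 1 to 6 had 872, 2151, 607, 1523, 740 and 1111. Males 1 to 5 had 1487, 1000, 364, 868 and 2700. Male 5 and female 2 were the highest and male 3 the lowest, with 7.42-fold between the extremes. Its dimmer probe set gave 699, 1689, 406, 1011, 566 and 607 in the females and 645, 912, 238, 537 and 1945 in the males. Male 5, female 2 and female 4 were the first lines and male 3 the last on both (Pearson r = 0.94, Spearman rho = 0.92 over 11 lines, r = 0.86 without the 2 farthest lines). In the middle of the order the probe sets differed: male 1 was in 4th place on the brighter probe set and in 6th place on the dimmer one, and male 2 in 6th and 4th place.

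FZD7, a related Frizzled receptor, was above the floor on 11 of the 12 arrays. Females 1 to 6 had 177, 324, 277, 325, 294 and 434, and males 1 to 5 had 300, 252, 100, 145 and 438. Male 5 and female 6, the 2 youngest donors, were the highest, and male 3 was at the floor. The SD of the log2 value was 0.68, with 0.55 without male 3 and 0.41 with a floor of 200.

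**Figure D1:**
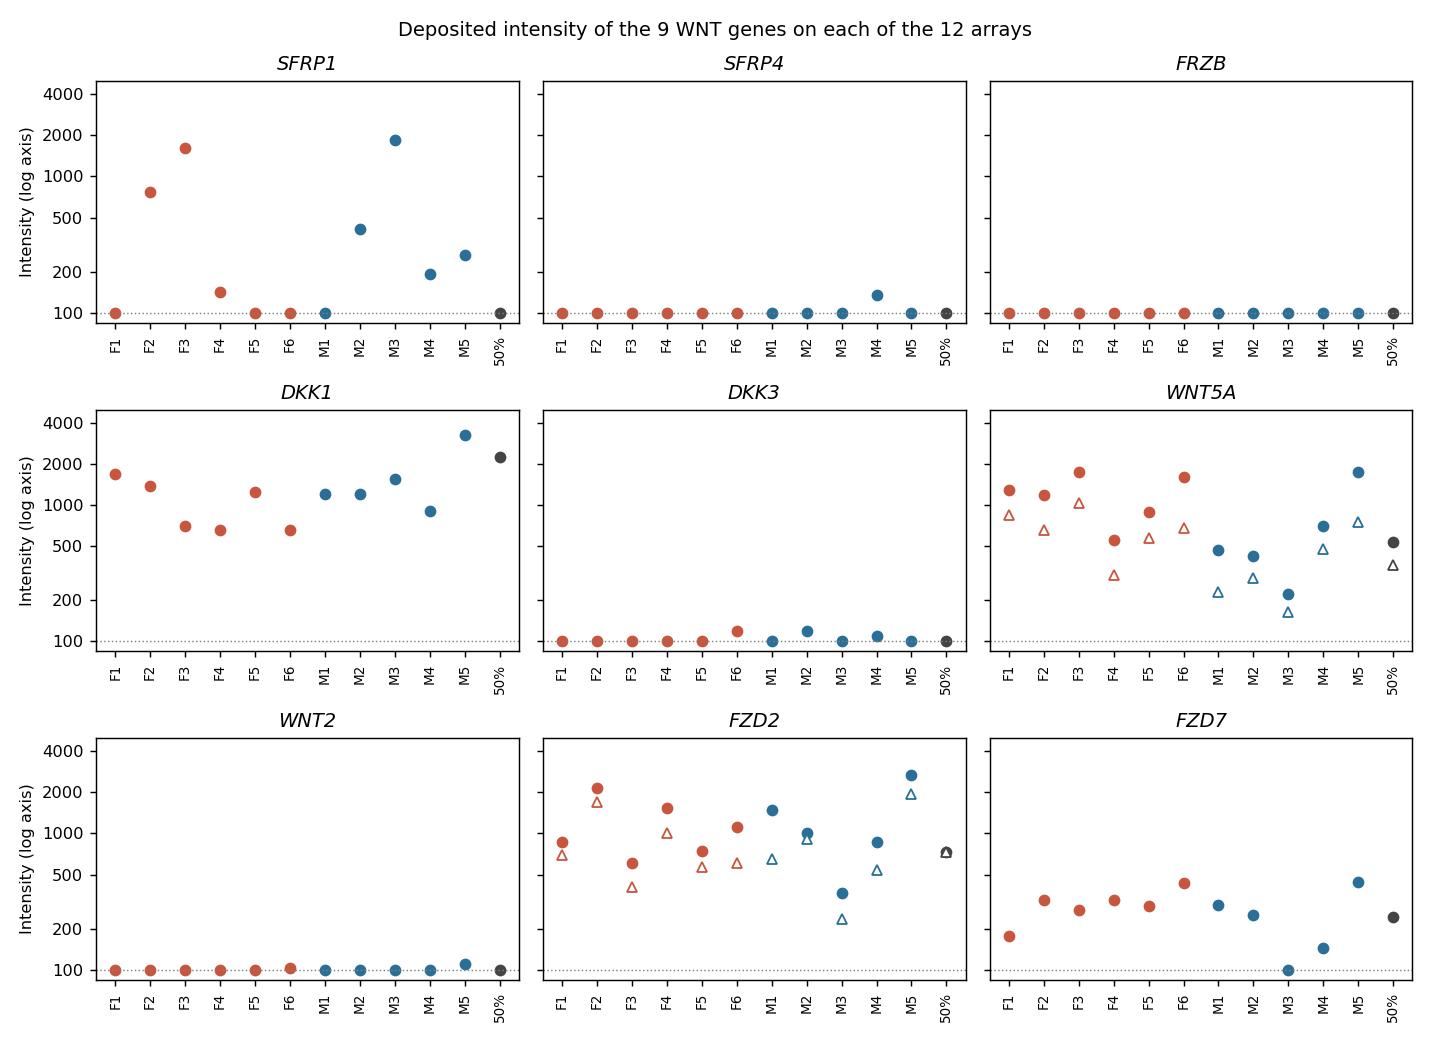
Deposited intensity of each of the 9 genes on the 12 arrays, on a log axis, with females F1 to F6 in red, males M1 to M5 in blue and the culture of male line 2 at 50% confluence in dark grey. Filled circles are the brighter probe set, open triangles the dimmer one, and the dotted line is the floor of 100; SFRP4, FRZB, DKK3 and WNT2 lie on or just above it, while SFRP1 runs from the floor to 1846.

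**Figure D2:**
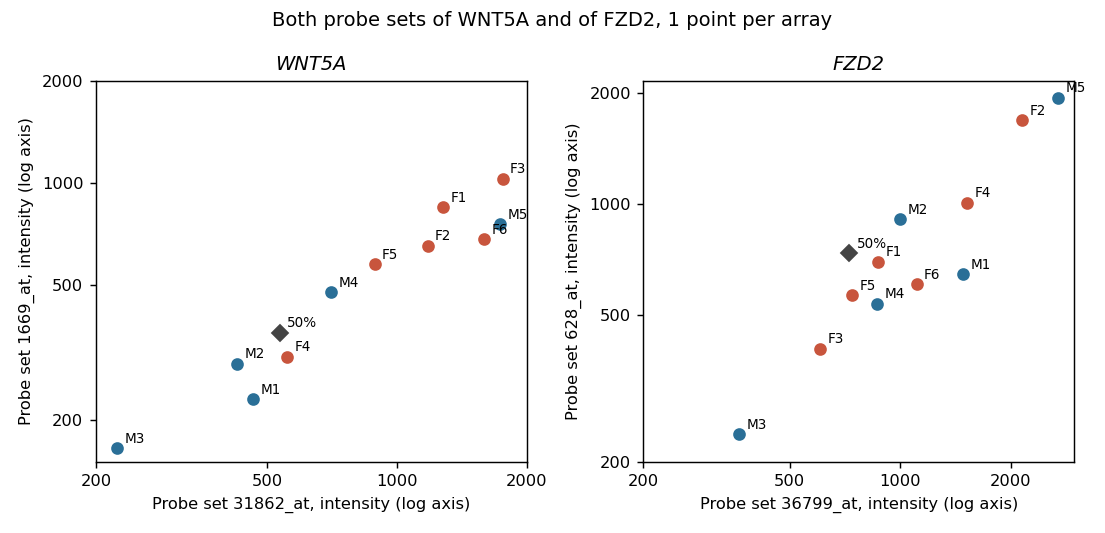
Intensity on the dimmer against the brighter probe set of WNT5A (left) and FZD2 (right), both axes on a log scale, 1 point per array, females in red, males in blue and the culture at 50% confluence as a grey diamond. Male 3 is lowest on both probe sets of both genes, and the points of each gene rise together.

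Among the 5 genes that passed the filter, the 2 receptors were the most alike over the lines. FZD2 and FZD7 had a Pearson r of 0.73 and a Spearman rho of 0.80 over the 11 lines, and r = 0.42 without males 3 and 5, the 2 lines farthest from the median of FZD2. WNT5A and FZD7 had r = 0.57 and rho = 0.52, and r = 0.24 without males 3 and 2. WNT5A and FZD2 had r = 0.40, which was -0.0038 without those lines, so this likeness rested on them. DKK1 followed none of the others closely, with r from -0.066 to 0.30 over its 4 pairs. SFRP1 and FZD2 had r = -0.35, and r = 0.54 without male 3 and the line labelled female 3, the opposite sign. These are 10 pairs described over arrays that share their normalization and floor, with no test.

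Male 3 stood out in several genes at once. It had the lowest WNT5A, FZD2 and FZD7 of the 11 lines and the highest SFRP1, with DKK1 in 3rd place. Its array also had the largest share of probe sets at the floor among the standard arrays, 48.82%, and a median intensity of 106 against 118 to 148 on the other 10. Its 2% trimmed mean was 414.6, within the 411.4 to 427 of all arrays. The part of these array measures in the values of male 3 was not tested. Across the 11 arrays the share of probe sets at the floor had an r of 0.45 with SFRP1, -0.39 with WNT5A, -0.28 with FZD2, -0.16 with FZD7 and -0.051 with DKK1. The ratio of 3' to 5' signal of GAPDH is higher where RNA is less intact. It had r = -0.31 with SFRP1, -0.0058 with DKK1, -0.075 with WNT5A, 0.499 with FZD2 and 0.17 with FZD7, both sides taken as log2.

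The lines labelled male and female were then compared, over all 7541 tested probe sets, to see whether these genes differ with sex. WNT5A was lower in the lines labelled male on both probe sets, but neither passed the test. On the brighter probe set the mean log2 value of the females was 10.16 ± 0.61 (SD, n = 6), and that of the males 9.15 ± 1.06 (SD, n = 5). The male minus female difference was -1.003 (SE 0.42, unadjusted p = 0.0316, limma adjusted p = 0.89), and on the dimmer one it was -0.94 (SE 0.36, unadjusted p = 0.0196, limma adjusted p = 0.89). The groups overlapped through male 5, at 1736, and female 4, at 556. Among the 9 adult lines the 4 males had 224 to 703, and 4 of the 5 females lay above all of them. The highest of those 4 was the line labelled female 3, whose RPS4Y1 went against its label. In adults, that line included, the difference on the brighter probe set was -1.30 (SE 0.35, unadjusted p = 0.00291), which did not pass either (limma adjusted p = 0.655). The adults were not fitted without it. Over donors of all ages, without the line labelled female 3, the difference on that probe set was -0.88 (SE 0.45, limma adjusted p = 0.942).

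The other measured genes showed smaller or less settled differences between the sexes. DKK1 had a male minus female difference of 0.58 (SE 0.34, limma adjusted p = 0.89), and 0.28 without male 5. FZD7 had -0.48 (SE 0.35) and -0.21 without male 3, with the same adjusted p in the fit of all 11 lines. The difference of SFRP1 was 0.40 (SE 0.81, limma adjusted p = 0.968), 0.95 without the line labelled female 3 and -0.22 without male 3, so 1 line set its sign. FZD2 had -0.0050 (SE 0.43, limma adjusted p = 0.999) and ran from -0.35 without male 5 to 0.37 without male 3. Of the 7 tested probe sets, 0 were called, as were 0 of all 7541 (0%). At an unadjusted p under 0.05 there were 2 of 7, both of WNT5A, against 5.26% of all probe sets. Without the line labelled female 3 the differences were 0.48 for DKK1, -0.49 for FZD7 and -0.16 for FZD2, none called; limma then called 1 probe set, that of RPS4Y1, and none of these genes.

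Donor age, with sex as a covariate, was fitted over the same 11 lines. The receptors and WNT5A had lower values in older donors, and SFRP1 higher ones, but no slope passed the test. WNT5A changed with age by -0.46 log2 units per 10 years on the brighter probe set (SE 0.19, unadjusted p = 0.0312, limma adjusted p = 0.86) and -0.25 on the dimmer one (SE 0.18, limma adjusted p = 0.937). FZD2 had -0.46 on the brighter probe set (SE 0.20, unadjusted p = 0.0364, limma adjusted p = 0.865) and -0.38 on the dimmer one (SE 0.22, limma adjusted p = 0.911). The slope of FZD7 was -0.29 (SE 0.17, limma adjusted p = 0.929) and that of DKK1 -0.17 (SE 0.18, limma adjusted p = 0.948). SFRP1 had 0.68 (SE 0.40, limma adjusted p = 0.915). Over the 7 probe sets 0 were called, as were 0 of all 7541 (0%), and 2 of 7 had an unadjusted p under 0.05, against 5.44% of all.

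The slopes moved with the 2 youngest donors and with the line labelled female 3, labelled as 35 years old. Without male 5 the slope was -0.22 for WNT5A, -0.28 for FZD2 and -0.13 for FZD7, and without female 6 it was -0.84 for FZD2. FZD7 stood at 434 and 438 in the youngest donors, above all 9 adults, who had 100 to 325. On the dimmer probe set of WNT5A the young had 682 and 756, below female 1 at 850 and the line labelled female 3 at 1031. WNT5A on the brighter probe set was 1594 and 1736 in the young donors, and in adults only the line labelled female 3, at 1757, was as high, with the rest at 224 to 1281. FZD2 on the brighter probe set was 1111 and 2700 in the young and 364 to 2151 in the adults, so these overlapped. Adults minus donors under 10 years, with sex as a covariate, gave -1.32 for WNT5A (SE 0.44, unadjusted p = 0.01, limma adjusted p = 0.56) and -0.94 for FZD7 (SE 0.39, unadjusted p = 0.032, limma adjusted p = 0.641). Among the adults alone the slope of WNT5A was -0.12 (SE 0.36) and that of FZD7 was 0.12 (SE 0.34), the other sign. That of FZD2 was -0.75 in adults (SE 0.37, unadjusted p = 0.0647), that of SFRP1 1.32 (SE 0.84) and that of DKK1 -0.38 (SE 0.29). Over donors of all ages, without the line labelled female 3, the slope of WNT5A was -0.71 (SE 0.17, unadjusted p = 0.0011, limma adjusted p = 0.994). In that fit FZD2 had -0.42 (SE 0.23), SFRP1 0.31 (SE 0.41), FZD7 -0.35 and DKK1 -0.12. The slope of DKK1 was 0.074 without male 5 and -0.59 without female 6 (unadjusted p = 0.00996, limma adjusted p = 1).

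**Figure D3:**
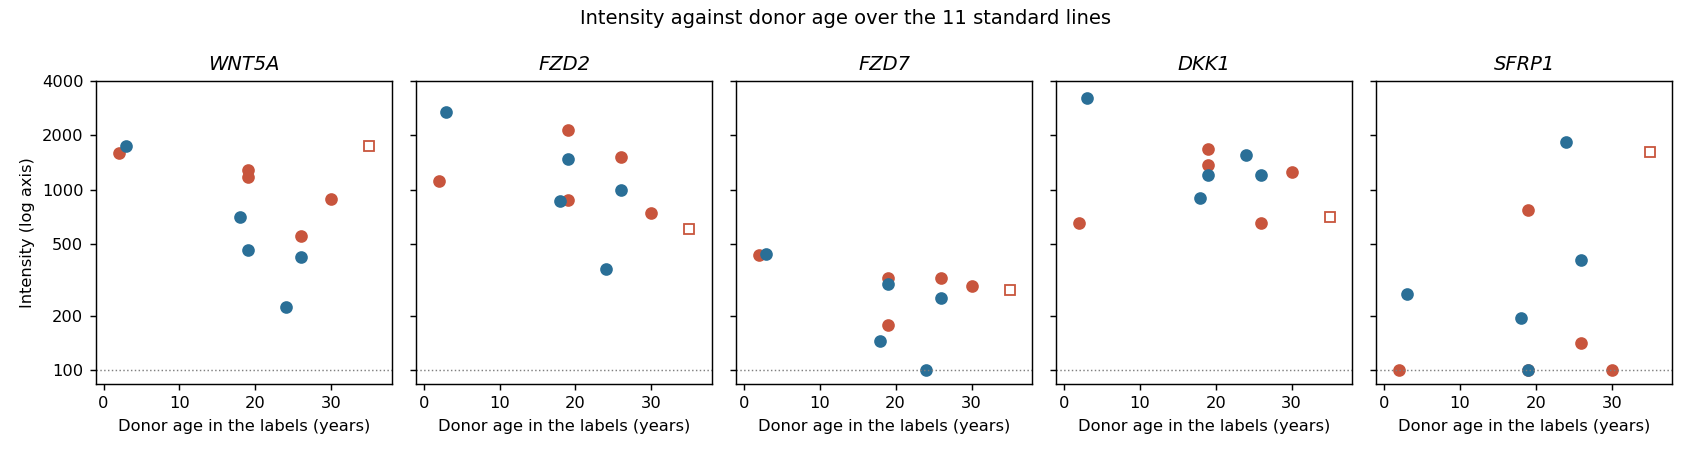
Intensity on a log axis against the donor age in the labels for WNT5A, FZD2, FZD7, DKK1 and SFRP1 over the 11 standard lines, brighter probe set, females in red and males in blue, with an open square for the line labelled female 3 and the floor as a dotted line. Donors of 2 and 3 years lie together at the top for FZD7, at 434 and 438, and far apart for DKK1, at 650 and 3242.

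The culture of male line 2 at 50% confluence was set against the standard culture of that line, with 1 array each and so no replicate check and no p-value. SFRP1 had 409 in the standard culture and 100, the floor, at 50% confluence, and was at least 3.91-fold lower after normalization. DKK1 went the other way, from 1205 in the standard culture to 2242 at 50% confluence, 1.73-fold higher after normalization. WNT5A had 426 and 535 on the brighter probe set and 293 and 362 on the dimmer one. After normalization it was 1.33-fold and 1.39-fold higher at 50% confluence. FZD2 had 1000 and 728 on the brighter probe set and 912 and 737 on the dimmer one, 1.46-fold and 1.30-fold lower after normalization. FZD7 had 252 and 244, a log2 difference of 0.21 after quantile normalization but -0.047 on the deposited values, so it has no settled direction.

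Of the 7 tested probe sets, 1, that of SFRP1, was lower by 2-fold or more, against 7.24% of all probe sets, and 0 were higher by as much, against 6.96%. On the deposited values the balance of such differences over all probe sets was 376 higher and 850 lower, against 525 and 546 after quantile normalization; SFRP1 was lower, and DKK1 and the brighter WNT5A probe set higher, under each of the 4 settings tried, but with a floor of 200 the log2 difference of SFRP1 was -0.97, under 2-fold. The 2 arrays also differed as a whole: the standard one had a median of 148 and 40.1% of probe sets at the floor, that at 50% confluence 105 and 49.18%. The summed fibroblast markers were 98150 and 59913 and the summed contractile markers 37005 and 17959. These sums are led by bright genes such as VIM, with 32443 and 15887, and TAGLN, with 26479 and 11497. Most fibroblast markers were lower at 50% confluence, but not all. COL3A1 had 1906 and 5409, and PDGFRB had 2259 and 2339 on 1 probe set. The contractile marker CNN1 had 430 and 419. The part of these markers and array measures in the differences of the members was not tested. All 7 probe sets at 50% confluence stayed within the range of the 11 standard arrays, while 6.59% of all probe sets lay above and 4.76% below their ranges. For SFRP1 the log2 difference of -1.97 compares with an SD of 1.61 between lines, and 4 standard lines were at the floor as well. For DKK1 the difference of 0.79 compares with an SD of 0.69.

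**Figure D4:**
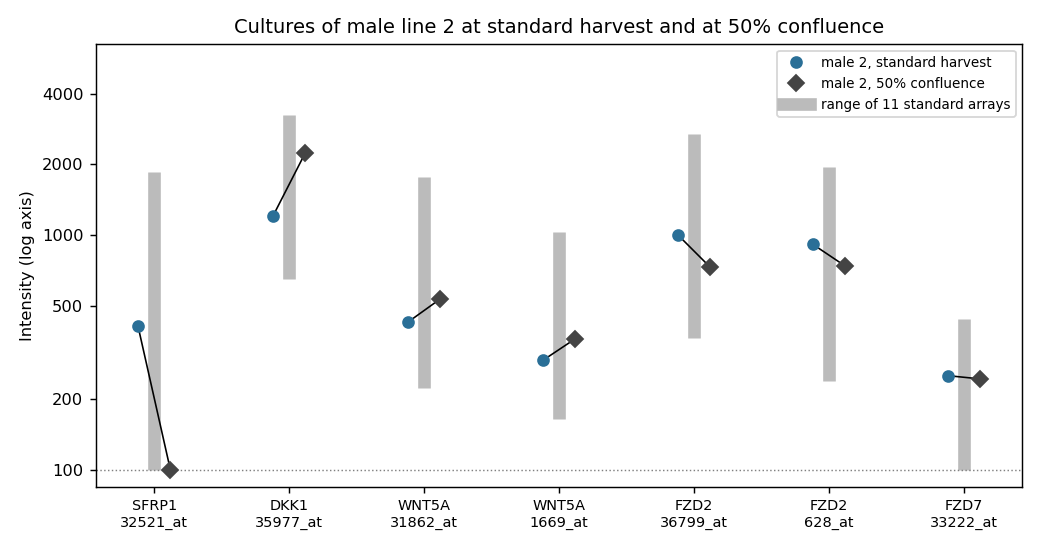
Intensity on a log axis of the 7 tested probe sets in male line 2 at standard harvest (blue circle) and at 50% confluence (grey diamond), with the range of the 11 standard arrays as a grey bar and the floor as a dotted line. SFRP1 falls from 409 to the floor, DKK1 goes from 1205 to 2242, and every diamond lies within or at the edge of its bar.

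Of 100 other WNT pathway genes listed, 58 had a probe set, 94 probe sets in all, and 65 probe sets of 45 genes passed the filter. None was called for sex or for age by limma, and at an unadjusted p under 0.05 there were 4 for sex (6.15% of the 65, against 5.26% of all probe sets) and 5 for age (7.69%, against 5.44%). The median SD between lines was 0.46 over these 65, against 0.41 over all tested probe sets, and 0 of them reached an SD of 1. Beta-catenin itself, CTNNB1, was among the steadier genes, at 2722 to 4762 with an SD of 0.26.

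Among the other ligands, the largest spreads were those of WNT10B (100 to 400, SD 0.62), WNT11 (197 to 736, SD 0.595), WNT7A (100 to 278, SD 0.51) and WNT6 (4052 to 11137, SD 0.49). A second WNT10B probe set was at the floor on all 12 arrays. WNT7A was highest in female 1, at 278, but on a second probe set in female 4, at 195, and male 1, at 164. WNT11, known from cell movements in development, was highest in female 6, at 736, and male 5, at 553, the 2 youngest donors, on its brighter probe set. The adult male 2 was close to them, at 523. On the dimmer probe set male 5 had 288, the adult male 4 had 225 and female 6 had 167. The slope of WNT11 with age was -0.41 per 10 years on the brighter probe set (SE 0.14, unadjusted p = 0.0106, limma adjusted p = 0.85), and the dimmer gave -0.24. WNT4 had -0.33 (SE 0.12, unadjusted p = 0.012, limma adjusted p = 0.85), with 247 and 220 in the young donors and 100 to 212 in adults. Neither slope passed the test. Of the secreted modulators, DKK4 was measured at 100 to 296, and WIF1, a WNT-binding inhibitor, was at the floor on all 12 arrays.

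Among receptors and co-receptors the spread was largest for ROR2, a tyrosine kinase receptor for WNT5A, at 100 to 629 with an SD of 0.92. FZD6 followed at 100 to 448 (SD 0.68), then LRP5, a co-receptor of the beta-catenin branch, at 178 to 655 (SD 0.65), and RYK at 159 to 460 (SD 0.53). A second RYK probe set was at the floor on every array. Inside the cell the most variable were AXIN1, a scaffold of the beta-catenin destruction complex, at 116 to 500 (SD 0.79), and DVL1, an adaptor of Frizzled receptors, at 128 to 494 (SD 0.56). A second APC probe set, at 100 to 293 (SD 0.497), and PPP2R5A, at 340 to 852 (SD 0.42), came next. Of the nuclear factors these were CTBP1 on its dimmer probe set (100 to 690, SD 0.88), TLE2 (100 to 276, SD 0.60), BCL9 (100 to 329, SD 0.59) and TCF7L2 (187 to 655, SD 0.55). The brighter CTBP1 probe set had an SD of 0.23. Of the known targets they were cyclin D1, CCND1 (3537 to 15450 on the most variable probe set, SD 0.84), VCAN (698 to 3819, SD 0.80), CCN4 (100 to 333, SD 0.68) and PPARD (237 to 947, SD 0.63).

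In the confluence pair, 4 of the 65 probe sets were lower by 2-fold or more at 50% confluence (6.15%, against 7.24% of all) and 2 were higher (3.08%, against 6.96%). On the deposited values 7 were lower and 0 higher: AXIN1 and BCL9 then fell short of 2-fold, and WNT11, TLE1 and TLE2 were lower by more than that. For the genes that follow, intensities are as deposited and folds are after quantile normalization. PTK7, a co-receptor of the branch that orients cells, had 1411 in the standard culture and 529 at 50% confluence, 2.71-fold lower and below all standard lines. TCF7L2, a transcription factor that pairs with beta-catenin, had 519 and 173, 2.59-fold lower. DVL1 had 338 and 119, 2.27-fold lower, and the second APC probe set 293 and the floor, while the brighter APC probe set had 449 and 535, higher. AXIN1 had 224 and 408, 2.10-fold higher. BCL9, a co-factor of beta-catenin, had the floor and 179.

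For the gene with an SD above 1, SFRP1, the 2 most alike genes over the 11 lines were sought among 1965 probe sets with 1 symbol and an SD of at least 0.5. They were NDN, a growth suppressor gene, with a Pearson r of 0.90 and a Spearman rho of 0.82, and CCND1, the cell cycle gene above, with r = 0.89 and rho = 0.73. NDN was highest in male 3, at 563, then 354 in male 2, 349 in female 2 and 269 in the line labelled female 3. The remaining 7 lines had 100 to 234. Without male 3 and the line labelled female 3, r was 0.91 for NDN and 0.75 for CCND1. The other 2 CCND1 probe sets gave 0.85 and 0.59. In the confluence pair NDN had 354 and 385 while SFRP1 went to the floor. The summed leukocyte markers had r = 0.74 with SFRP1 and 0.53 without the 2 lines farthest from the median of that sum, at 1014 to 2772 in female and 891 to 2628 in male lines. CD14 was highest in female 2 at 1673, male 3 at 1576 and male 4 at 1092. CD68 and CD3E were above the floor on all 12 arrays, and PTPRC and LYZ were at it on all 12. The part of leukocyte RNA in the SFRP1 values was not tested.

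The most alike genes of the other measured members were looked up after their values were seen. FZD2 ran with PLAU, the urokinase gene (r = 0.91, rho = 0.95, and 0.85 without males 3 and 5), and with smooth muscle actin, ACTA2 (r = 0.84, rho = 0.87, and 0.71). PLAU had 2528 in female 2 and 2455 in male 5, the lines with the most FZD2, and 636 in male 3, the line with the least. The sum of the 6 contractile markers had r = 0.75 with FZD2 and 0.67 with FZD7, at 13013 to 41903 in female and 12939 to 37005 in male lines. That sum is mostly TAGLN (10414 to 26479) and ACTA2 itself (885 to 17653). Of the 6 genes, 3 were above the floor on all 12 arrays, and DES was above it on 2. The sum of the 7 chondrocyte markers had r = 0.65 with FZD2, at 1512 to 3913 and 1408 to 2938. Only 2 of these 7 were above the floor on all 12 arrays, and ACAN had the widest range, up to 1787. COL9A1 was lowest in male 2, at 239, and female 6, at 240, where that ACAN probe set had 1424 and 870. Sums led by so few genes do not name a cell type, and the part of such cells in the FZD2 and FZD7 values was not tested. FZD7 ran with ADGRE5, an adhesion receptor gene (r = 0.93), and with the integrin gene ITGA3 (r = 0.91, and 0.73 on a second probe set). WNT5A ran with SCRN1 (r = 0.84) and VPS13D (r = 0.83), and DKK1 with SMAD4 (r = 0.79) and TEK (r = 0.78). The other 2 SMAD4 probe sets gave 0.21 and 0.34, and TEK was at the floor in 8 of the 11 lines, with r = 0.44 without male 5 and female 6. The genes named are the 2 with the highest r for each member among 1965 candidate probe sets over 11 arrays that share their normalization, described with no test.

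**Figure D5:**
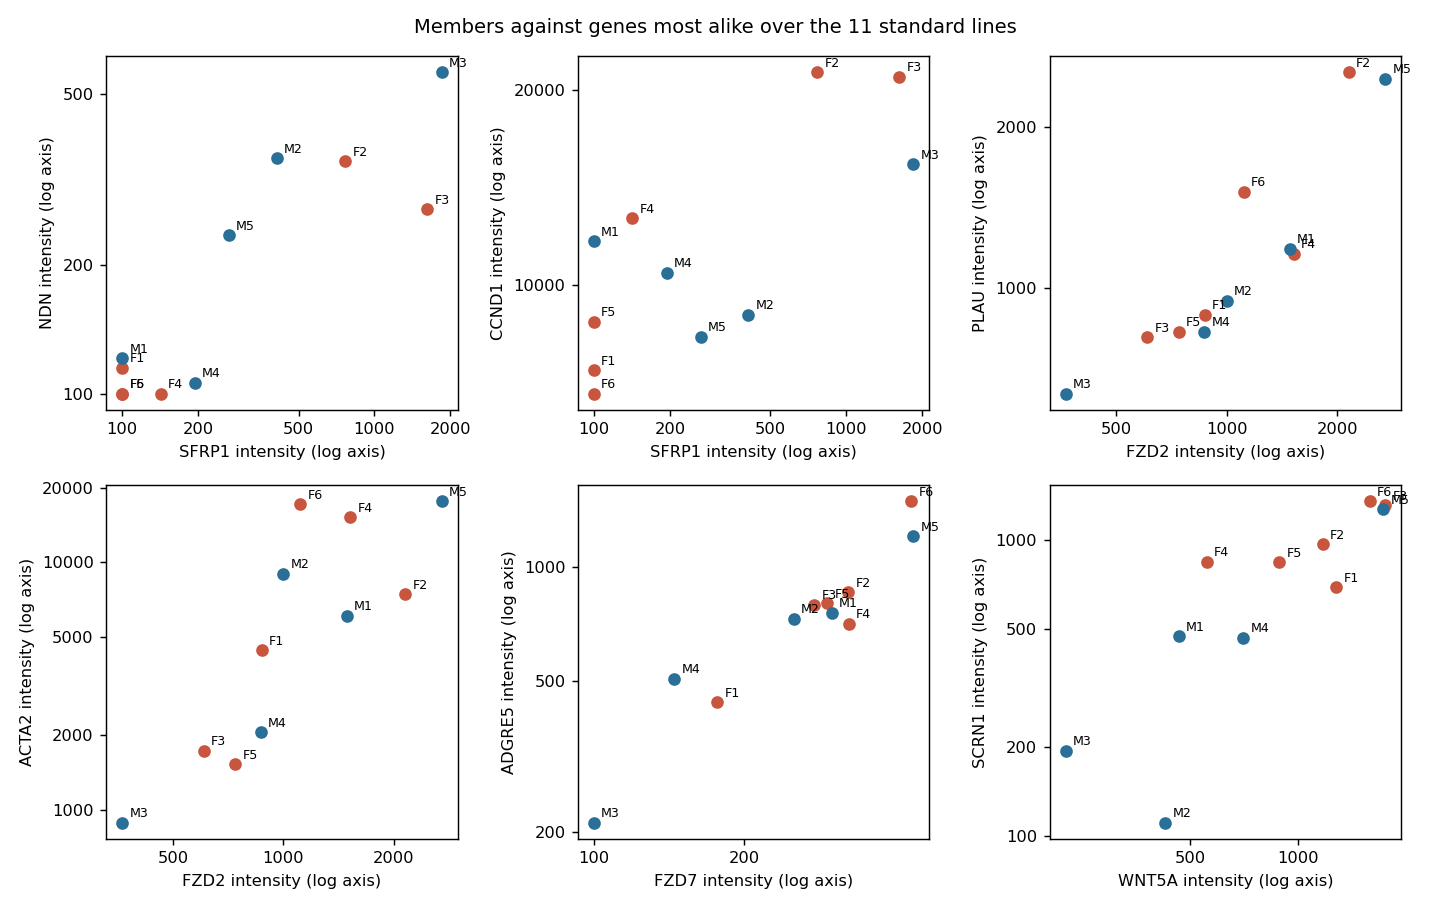
Intensity of 6 genes against that of the member each resembles over the 11 standard lines, both axes on a log scale, females in red and males in blue. NDN and CCND1 rise with SFRP1, PLAU and ACTA2 with FZD2, ADGRE5 with FZD7 and SCRN1 with WNT5A; male 3 is the lowest point for FZD2, FZD7 and WNT5A and the highest for SFRP1.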

How the data were processed

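RNA of 12 gorilla fibroblast cultures was measured on short-oligonucleotide arrays with 12625 probe sets, 67 of them controls. The authors deposited linear intensities, floored at 100, with 2% trimmed means of 411.4 to 427; their computation is not given in the sources at hand. The number of arrays limits the precision. Members and lists were chosen with earlier results of these data known. From the deposited intensities, log2 values were quantile normalized. Probe sets with a mean log2 value above the 40th percentile were kept, less controls, which left 7541 for testing. Differences by sex, and age slopes adjusted for sex, came from limma 3.58.1 in R 4.3.3 over the 11 standard arrays, with Benjamini-Hochberg adjustment over all 7541 at a threshold of 0.05, two-sided. Each p-value rests on the spread between lines. With 1 array a line, that spread holds differences of line, culture and array together. The limma fits and the search for alike genes were tried on simulated normal values, with no floor, normalization or filter step. That trial does not measure how many real differences the fits could miss here. Symbols came from the platform annotation, with 1 symbol for 10961 probe sets, several for 545 and none listed for 1119. Genes named were all members, the 4 of largest SD per pathway role, those differing 2-fold in the confluence pair, and the 2 most alike genes of a member with an SD of 1 or more; the most alike genes of other members, CTNNB1, WNT4, WIF1 and second probe sets were named after their values were seen. Alternatives were other scalings, floors, filters, array weights, ages and each line left out.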

Additional observations from a re-analysis of the deposited data

Results flagged for a closer look

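A check for single values far from the rest of their group was made in 19 groups of 5 or 6 lines, and 4 stood out. In each the other lines were all at the floor, so the gap was the whole range, a ratio of 1. In such a group any single value above the floor is flagged, however close to it, so no chance rate is set against the 4. SFRP4 had 135 in male 4. DKK3 had 119 in female 6. WNT2 had 104 in female 6 and 110 in male 5. All lie close to the floor of 100.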

How the results depend on the processing

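Of 200 tests of single members under the alternatives, 191 kept direction and call and 9 turned direction; 0 member probe sets were called in any. Leaving out 1 line at a time, FZD2 differed between the sexes by -0.35 (without male 5) up to 0.37 (without male 3), and SFRP1 by -0.22 (without male 3) up to 0.95 (without the line labelled female 3). The age slope of DKK1 ran from -0.59 to 0.074, and that of FZD7 was 0.12 in adults only. Over all probe sets, leaving out 1 line gave 0 to 1 called for sex. With the 50% confluence array in place of male 2, 2 were called for sex and 1 for age. In the confluence pair, 850 probe sets were lower on deposited values, 824 with median scaling and 283 with a floor of 200, which left 253 higher and 69 with an SD of 1 or more. The cause was not tested. No paired test was possible, since only male line 2 had a second culture, with 1 array each. A floor of 100 and 1 array a line limit what can be read from SFRP1 and FZD7.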
